A study of Homo sapiens with 15 samples.

Results

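The ubiquitin-conjugating (E2) enzymes were followed through the RNF5 knockdown libraries. The set held 33 genes, chosen by symbol as the enzymes that carry ubiquitin, NEDD8 or ISG15, together with the catalytically inactive partners UBE2V1 and UBE2V2. All 33 were found among the 57820 gene identifiers of the files, with 1 identifier each, and all 33 were above 0 in every line. MOLM-13, U937 and HL-60, established human lines of acute myeloid leukemia, were transduced with the empty lentiviral vector pLKO or with a short hairpin RNA vector against RNF5 (shRNF5), and polyadenylated RNA was sequenced. There were 15 libraries: 3 pLKO and 2 shRNF5 in MOLM-13, 2 of each construct in U937 and 3 of each in HL-60. RNA was taken 7 days after knockdown by the sample labels and 5 days by the series description, and which RNF5 hairpin was sequenced is not given in the sources used here. No source states that libraries of a group came from separate cultures, so the p-values measure only the spread between these libraries, which may be technical.

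Ubiquitin reaches its substrates in a relay. An E1 enzyme activates the modifier, an E2 enzyme receives it on a catalytic cysteine, and an E3 ligase brings the loaded E2 to the substrate. The E2 largely sets which chain is built, and RNF5, a RING ligase anchored in the endoplasmic reticulum (ER) membrane, needs an E2 to act because RING ligases do not carry ubiquitin themselves.

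Values are the authors' normalized read counts, and a gene was called where limma gave an adjusted p under 0.1 and the log2 fold change of value + 1 exceeded 0.4 in size. The estimated depth, in units of 1e6 reads, lay between 9.7 and 63.8 per library. In MOLM-13 the shRNF5 libraries (24.4 and 63.8 in these units) were deeper than every pLKO library (9.7 to 15.3), so depth and knockdown cannot be told apart there. The myeloid marker CD33 had group means between 1017 and 1495, while CD3E, CD3G, MS4A1, HBB and EPCAM were listed at 0 throughout. COL1A1 was above 0 in U937 only, with a pLKO mean of 136.5. RNF5 itself fell in each line. Its values were 1223, 1017 and 1020 in MOLM-13 pLKO against 76 and 81 in shRNF5 (log2 fold change -3.77, limma adjusted p = 0.000336). In U937 they were 648 and 843 against 46 and 74 (-3.64, adjusted p = 0.00287), and in HL-60 506, 689 and 545 against 37, 133 and 43 (-3.25, adjusted p = 0.00125). The groups did not overlap in any line.

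By limma no E2 gene was called in MOLM-13 (0 of 33), where 1.03% of 13026 tested genes were called up and 1.01% down. An unadjusted limma p under 0.05 was found for 5 members there, against 9 (U937) and 7 (HL-60) elsewhere. How many of all genes lay under that cut was not counted, so these 3 numbers are not read as a result. In U937 limma called 3 members up (9.09%, against 6.92% of all 13165 genes) and 1 down (3.03%, against 8.74%). In HL-60 it called 2 up (6.06%, against 13.6% of all 12570 genes) and 4 down (12.1%, against 12.3%). Read against the shares of all genes, these counts are no result about the members as a set. All 4 U937 calls were lost when pLKO replicate 2, shRNF5 replicate 1 or shRNF5 replicate 3 was left out, and each was kept without pLKO replicate 3. All 4 were lost as well without the mean-variance trend of the fit. The 10 calls fell on 10 different genes, and no member was called in 2 lines. The matching share of all genes was not counted, so this is not read as a result about the members. For the members the median log2 fold change was -0.05 (MOLM-13), 0.17 (U937) and 0.10 (HL-60). The medians of all genes were 0.007, 0.004 and 0.002.

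**Figure D1:**
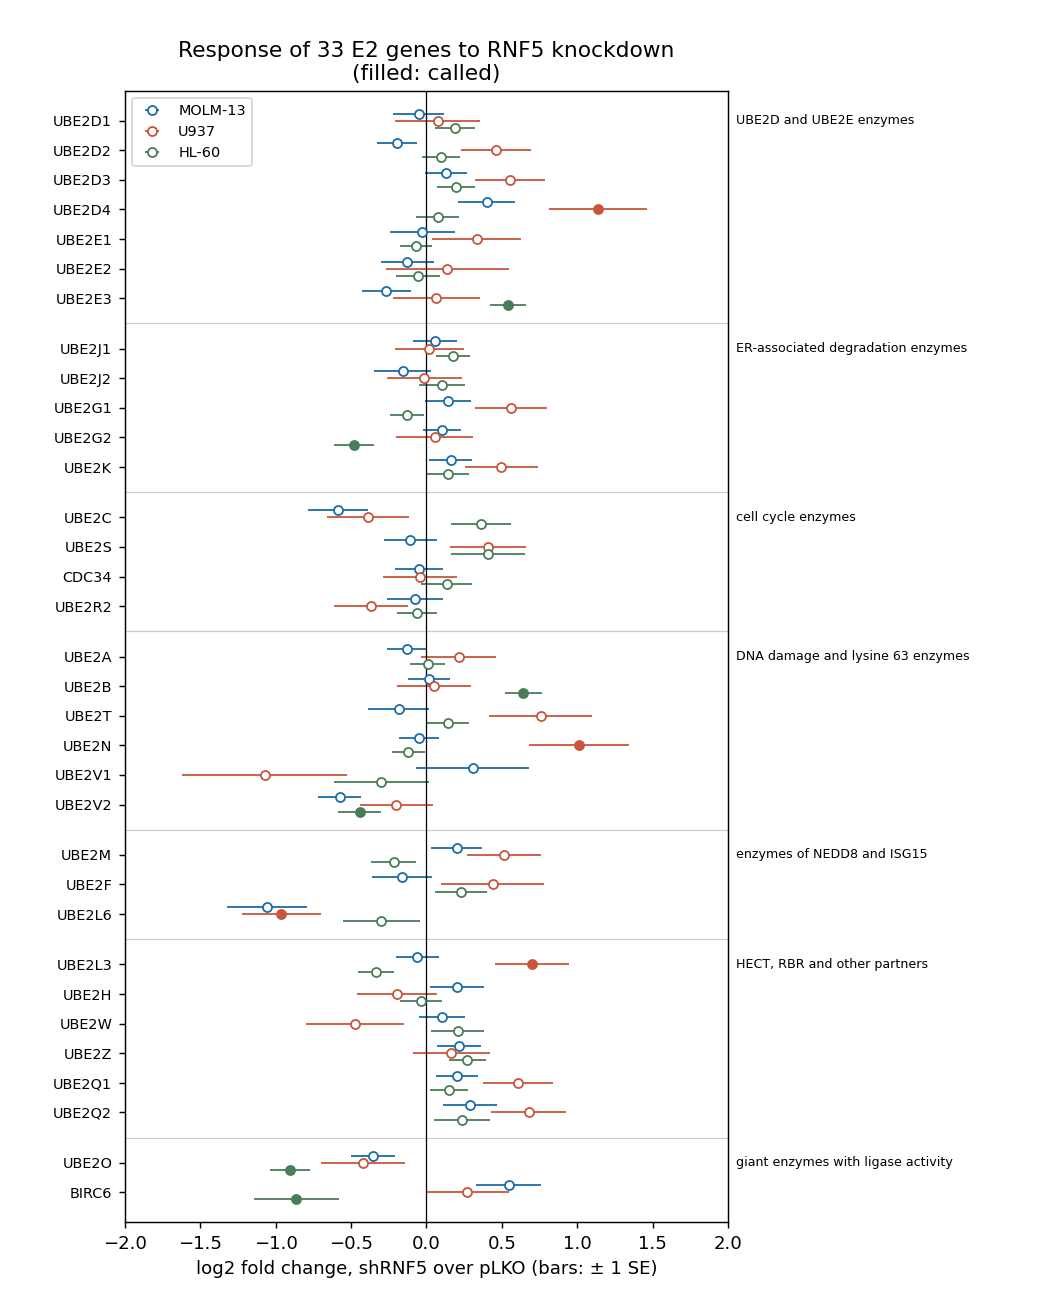
Log2 fold change (shRNF5 over pLKO, x axis) of each of the 33 E2 genes, grouped by role, in MOLM-13, U937 and HL-60. Points are limma estimates and bars ± 1 SE. Filled points are the 10 called genes, 4 in U937 and 6 in HL-60, and no point is filled in MOLM-13.

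The summed value of the 33 genes was 48397 and 50564 in the U937 pLKO libraries and 60216 and 57263 in the shRNF5 libraries. The U937 groups did not overlap, but the sums were not tested. With 2 libraries against 2, an exact two-sided permutation test cannot give a p under 0.333. In HL-60 the sum was 57010, 55196 and 56399 in pLKO against 55255, 54252 and 55716 in shRNF5, and in MOLM-13 it was 72927, 82467 and 78546 against 79664 and 79247. Both of these pairs of groups overlapped. In bulk RNA, fewer cells of a type and less RNA per cell cannot be told apart.

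Among the UBE2D and UBE2E enzymes, the broad-range partners of RING ligases, UBE2D4 rose in U937 and UBE2E3 rose in HL-60. UBE2D4 (chromosome 7, 43966035 to 43995735, plus strand, GRCh37) builds several chain types in vitro. Its values in U937 were 153 and 191 in pLKO and 409 and 349 in shRNF5. Both knockdown libraries were above both controls (log2 fold change 1.14 ± 0.32 SE, limma adjusted p = 0.0605). In MOLM-13 it was 285, 298 and 243 against 364 and 360 (0.40, adjusted p = 0.330), and in HL-60 355, 314 and 322 against 383, 328 and 334 (0.07, adjusted p = 0.741). The HL-60 groups overlapped, those of MOLM-13 did not.

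UBE2E3 (chromosome 2, 181831975 to 181941312, plus strand) had 603, 636 and 581 in HL-60 pLKO and 828, 941 and 881 in shRNF5. Every knockdown library lay above every control (0.54 ± 0.12 SE, limma adjusted p = 0.0134). MOLM-13 went from 948, 1208 and 1068 to 891 and 889 (-0.26, adjusted p = 0.426), and U937 from 402 and 508 to 430 and 521 (0.07, adjusted p = 0.906). Of its longest transcript, 2.1% of the 75-base windows also occur in the pseudogene UBE2E4P. The 5 remaining members of the group were not called in any line, with log2 fold changes from -0.19 (UBE2D2 in MOLM-13) to 0.55 (UBE2D3 in U937).

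The promoter windows of UBE2D4 and UBE2G2 are shown here because each holds the binding motif of NRF1 (nuclear respiratory factor 1), searched on both strands as GCGCA, any base, GCGC. The windows are RefSeq's (GRCh38.p14) and run from 250 bases before to 50 after the annotated start. The motif is in capitals. Of the 33 members 27 had an entry, and UBE2H, UBE2V2, UBE2C, UBE2B, UBE2W and UBE2Q1 had none.
UBE2D4, chr7:43926186-43926485, plus strand: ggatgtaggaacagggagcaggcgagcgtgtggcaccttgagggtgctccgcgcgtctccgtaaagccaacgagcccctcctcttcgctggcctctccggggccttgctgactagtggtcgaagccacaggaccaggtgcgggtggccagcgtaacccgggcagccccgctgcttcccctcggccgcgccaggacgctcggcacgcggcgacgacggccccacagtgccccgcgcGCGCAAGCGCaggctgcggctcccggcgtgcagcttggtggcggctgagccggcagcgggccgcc
UBE2G2, chr21:44801771-44802070, minus strand: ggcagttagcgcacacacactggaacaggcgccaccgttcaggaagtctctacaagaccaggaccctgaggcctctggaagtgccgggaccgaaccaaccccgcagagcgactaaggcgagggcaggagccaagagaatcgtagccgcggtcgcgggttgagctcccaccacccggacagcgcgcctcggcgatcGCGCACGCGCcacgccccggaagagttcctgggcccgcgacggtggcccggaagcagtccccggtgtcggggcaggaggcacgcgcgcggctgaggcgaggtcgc
The motif occurred in 10 of the 27 members (37%), against 13.34% of the 9701 genes above 0 that had an entry and 5.78% of all 35116 windows. A match describes these letters and is not a binding site. The CCAAT box was in 8 of 27 members (29.6%, against 43.51% of those genes), and the ETS motif CCGGAAGT in 3 (11.1%, against 10.01%). Also searched were the E-box CACGTG, in 0 members (against 12.69%), and the CHR motif TTTGAA, in 2 (7.4%, against 14.01%). The interferon-stimulated response element, described below, was in 1 (3.7%, against 4.06%). NRF1 thus had the highest share of members among the motifs searched, and its excess was not tested.

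Of the ER-associated degradation E2 enzymes, which serve RNF5's own pathway, only UBE2G2 was called, in HL-60 and downward. UBE2G2 (chromosome 21, 46188495 to 46221741, minus strand) extends ubiquitin chains on proteins leaving the ER. Its HL-60 values were 3392, 3117 and 3077 in pLKO and 2130, 2741 and 2047 in shRNF5, without overlap (-0.48 ± 0.13 SE, limma adjusted p = 0.0313). The call was lost without pLKO replicate 1 or shRNF5 replicate 3. In U937 the 2 groups overlapped (2799 and 3687 against 2990 and 3722), and in MOLM-13 they did as well (4637, 4353 and 4194 against 4635 and 4790).

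UBE2J1, the ER-membrane E2 known as UBC6e, had 3919, 4203 and 4305 in HL-60 pLKO and 5018, 4460 and 4550 in shRNF5 (0.17, adjusted p = 0.299). MOLM-13 and U937 gave log2 fold changes of 0.06 and 0.02. UBE2J2, the other membrane-anchored E2, stayed between -0.16 and 0.10 in the 3 lines. UBE2G1 moved from 1399 and 1326 to 2175 and 1854 in U937 without overlap, but its log2 fold change of 0.56 did not pass (adjusted p = 0.162). UBE2K, which extends degradative chains, was likewise not called (0.50 in U937, adjusted p = 0.212).

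No cell cycle E2 was called. UBE2C, which primes substrates for the anaphase-promoting complex, was 1258, 1705 and 1324 in MOLM-13 pLKO and 1099 and 809 in shRNF5 (-0.59, adjusted p = 0.214). The MOLM-13 groups did not overlap. In U937 it was 569 and 620 against 435 and 472 (-0.39, adjusted p = 0.376), and in HL-60 995, 1215 and 700 against 1022, 1245 and 1415 (0.36, adjusted p = 0.216), where the groups overlapped. UBE2S, CDC34 and UBE2R2 ranged from -0.37 to 0.41 over the 3 lines. Of the 75-base windows of UBE2S, 38.4% lie also in an overlapping lincRNA, so its reads may be split. Of 17 proliferation markers, a positive log2 fold change was found for 2 (MOLM-13), 15 (U937) and 11 (HL-60). The share of positive values over all genes was not counted. Limma called 0, 3 and 1 of the markers up in these lines and 0 down. Over all genes 1.03%, 6.92% and 13.6% were called up. RRM2, a ribonucleotide reductase subunit, and MKI67 rose in U937 (2.20 and 1.60, limma adjusted p = 0.0144 and 0.0179). Their part in the E2 values was not tested.

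In the DNA damage and non-degradative chain group, UBE2B rose in HL-60, UBE2N rose in U937 and UBE2V2 fell in HL-60. UBE2B and UBE2A are the RAD6 pair that works with RAD18 at stalled forks. UBE2B (chromosome 5, 133706875 to 133727799, plus strand) had 1016, 1096 and 1158 in HL-60 pLKO and 1592, 1651 and 1872 in shRNF5. Every knockdown library exceeded every control (0.64 ± 0.12 SE, limma adjusted p = 0.00634). UBE2A was 1461, 1628 and 1622 against 1606, 1487 and 1641, with overlapping groups (0.01, adjusted p = 0.970). The ratio UBE2B/UBE2A within a library was 0.694 ± 0.020 (SD, n = 3) in pLKO and 1.08 ± 0.079 (n = 3) in shRNF5, without overlap, and the exact two-sided permutation test gave p = 0.1, the smallest that 3 against 3 allows (0.525 after adjustment over 21 ratios in 7 gene pairs). UBE2B's log2 fold change was 0.02 (MOLM-13) and 0.05 (U937) elsewhere.

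**Figure D2:**
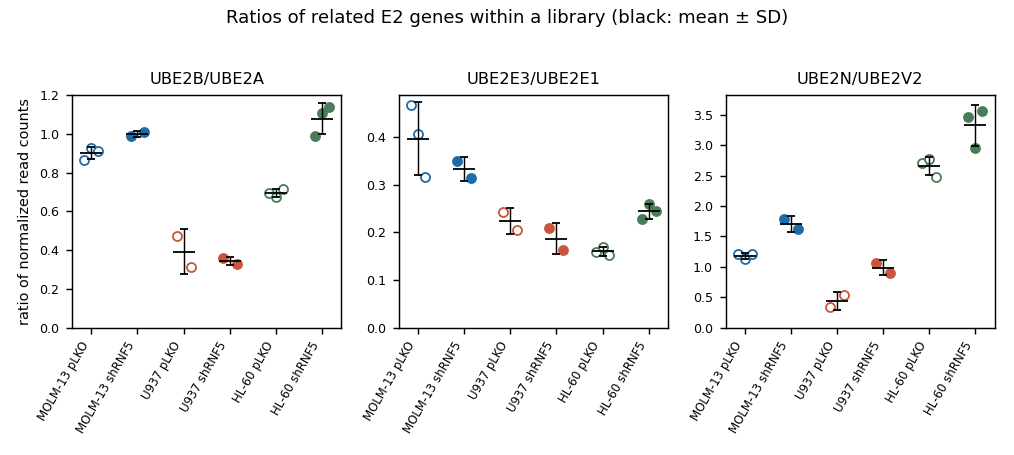
Ratio of normalized read counts within each library (y axis) for UBE2B/UBE2A, UBE2E3/UBE2E1 and UBE2N/UBE2V2. Open points are pLKO and filled points shRNF5 libraries, and black bars give mean ± SD. In HL-60 the UBE2B/UBE2A ratio is near 0.694 in pLKO and 1.08 in shRNF5.

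UBE2N (UBC13; chromosome 12, 93799449 to 93835723, minus strand) builds K63-linked chains as a dimer with UBE2V1 or UBE2V2. Its U937 values were 719 and 1503 in pLKO and 2273 and 1931 in shRNF5. Both knockdown libraries were higher, although the controls were far apart (1.01 ± 0.33 SE, limma adjusted p = 0.0870). Without pLKO replicate 2 the log2 fold change was 0.48, and the call was also lost with a correction for transcript length. In HL-60 it was 3110, 3119 and 3102 against 2751, 3072 and 2779 (-0.12, adjusted p = 0.467), and in MOLM-13 5807, 6463 and 5687 against 6005 and 5554 (-0.05, adjusted p = 0.873). An exon of NUDT4 lies on the opposite strand over UBE2N, and UBE2D4, UBE2E3, UBE2L3 and BIRC6 have such partners too. So do UBE2D3, UBE2Q1, UBE2A and UBE2E1, the last of which, like UBE2A, enters a ratio shown above. Whether the counting used strand is not given in the sources used here, so reads of such pairs may not be separable. The promoter window of UBE2N is shown because it holds the ETS motif, in capitals.
UBE2N, chr12:93441898-93442197, minus strand: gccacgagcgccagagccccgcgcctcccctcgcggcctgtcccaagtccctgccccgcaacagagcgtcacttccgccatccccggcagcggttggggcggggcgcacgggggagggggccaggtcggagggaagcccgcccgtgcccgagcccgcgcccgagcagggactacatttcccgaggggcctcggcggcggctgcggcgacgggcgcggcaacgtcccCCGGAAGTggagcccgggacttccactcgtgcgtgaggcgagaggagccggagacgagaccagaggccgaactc

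UBE2V2 (MMS2), the partner of UBE2N, was 1149, 1128 and 1250 in HL-60 pLKO and 793, 1043 and 779 in shRNF5. The groups did not overlap (-0.44 ± 0.14 SE, limma adjusted p = 0.0489). The call did not survive leaving out pLKO replicate 1, pLKO replicate 3, shRNF5 replicate 1 or shRNF5 replicate 3. In MOLM-13 it was 4772, 5739 and 4714 against 3350 and 3439, also without overlap (-0.57, adjusted p = 0.124). In U937 the change was -0.20 (adjusted p = 0.626). The ratio UBE2N/UBE2V2 was higher in shRNF5 in all 3 lines without overlap. The means for pLKO and shRNF5 were 1.18 and 1.70 for MOLM-13, 0.437 and 0.984 for U937, and 2.65 and 3.33 for HL-60. The exact two-sided permutation p was 0.2, 0.333 and 0.1, the smallest that each design allows (0.6, 0.777 and 0.525 after adjustment over the 21 ratios). UBE2V1 was low (28 to 194 per library), and 81.0% of the 75-base windows of its longest transcript are shared with other genes, mainly the PEDS1-UBE2V1 readthrough, so its values are uncertain. UBE2T, the E2 of the Fanconi anemia pathway, was not called (0.76 in U937, adjusted p = 0.182).

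**Figure D3:**
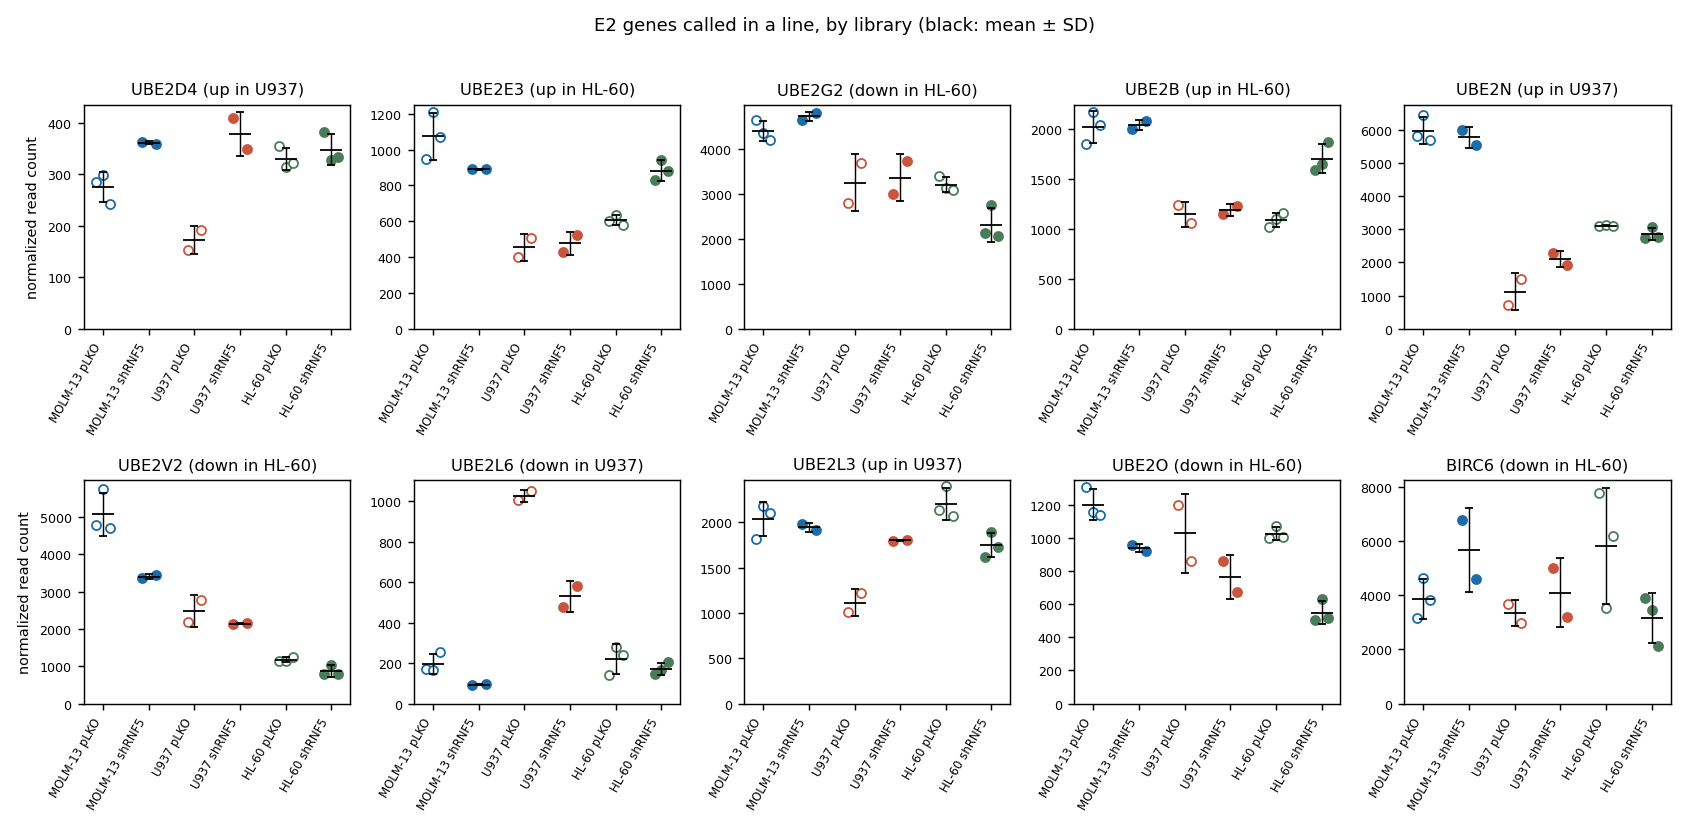
Normalized read count (y axis, from 0) of the 10 called E2 genes in each library of the 6 groups. Open points are pLKO and filled points shRNF5, and black bars give mean ± SD. Of the genes called in HL-60, only BIRC6 has HL-60 groups that overlap.

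UBE2L6, the E2 for ISG15, fell in U937. ISG15 is a ubiquitin-like modifier induced by interferon, loaded by the E1 UBA7 and attached by the E3 HERC5. UBE2L6 (chromosome 11, 57319129 to 57335757, minus strand) was 1006 and 1048 in U937 pLKO and 476 and 583 in shRNF5. Both knockdown libraries lay below both controls (-0.96 ± 0.26 SE, limma adjusted p = 0.0542). In MOLM-13 it was 171, 166 and 254 against 91 and 94, again without overlap (-1.05, adjusted p = 0.126). In HL-60 the groups overlapped (139, 280 and 240 against 148, 164 and 206; -0.30, adjusted p = 0.433).

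UBA7 and HERC5 also fell in U937 and both rose in HL-60. UBA7 was 1405 and 611 in U937 pLKO against 359 and 507 (-1.12, limma adjusted p = 0.0960), and 181, 348 and 327 in HL-60 pLKO against 1043, 613 and 1359 (1.80, adjusted p = 0.00424). HERC5 was 1617 and 949 against 702 and 614 in U937 (-0.92, adjusted p = 0.0864), and 810, 791 and 827 against 1189, 1242 and 1227 in HL-60 (0.59, adjusted p = 0.00654). HERC5 in HL-60 was named after its values were seen. In each case no knockdown library fell inside the control range. The difference between U937 and HL-60 was -2.91 for UBA7 and -1.51 for HERC5 (limma adjusted p = 0.00199 and 0.00156), whereas that of UBE2L6 was not called. HERC6 rose in HL-60 too (0.59, adjusted p = 0.0259), so of the 5 genes of the ISG15 list 2 fell in U937 (8.74% of all genes were called down there) and 3 rose in HL-60 (13.6% of all genes up). ISG15 itself was not called. Its values were 251 and 284 against 214 and 166 in U937, and 128, 169 and 167 against 121, 195 and 165 in HL-60.

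The HERC5 and ISG15 windows are shown with the interferon-stimulated response element, searched on both strands as GAAA, any 2 bases, GAAA, in capitals. It occurs in 3.57% of all windows.
HERC5, chr4:88456869-88457168, plus strand: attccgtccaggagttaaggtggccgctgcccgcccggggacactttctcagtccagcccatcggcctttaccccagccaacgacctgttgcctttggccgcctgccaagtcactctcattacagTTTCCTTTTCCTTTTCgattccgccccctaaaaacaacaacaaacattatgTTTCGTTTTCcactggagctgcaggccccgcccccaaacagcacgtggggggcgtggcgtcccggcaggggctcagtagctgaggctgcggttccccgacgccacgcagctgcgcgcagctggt
ISG15, chr1:1013247-1013546, plus strand: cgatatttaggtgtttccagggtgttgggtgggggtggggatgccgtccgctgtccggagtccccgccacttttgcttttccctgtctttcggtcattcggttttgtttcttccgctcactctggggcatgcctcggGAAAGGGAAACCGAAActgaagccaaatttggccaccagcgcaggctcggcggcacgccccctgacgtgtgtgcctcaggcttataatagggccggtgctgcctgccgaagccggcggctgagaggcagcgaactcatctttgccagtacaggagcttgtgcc
UBE2L6, chr11:57567623-57567922, minus strand: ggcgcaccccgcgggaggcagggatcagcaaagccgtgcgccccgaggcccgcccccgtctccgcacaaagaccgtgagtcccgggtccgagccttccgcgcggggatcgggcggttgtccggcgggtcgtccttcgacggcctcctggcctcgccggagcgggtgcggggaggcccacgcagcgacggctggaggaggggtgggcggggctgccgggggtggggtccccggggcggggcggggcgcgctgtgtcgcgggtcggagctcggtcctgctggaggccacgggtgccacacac
Neither of the windows that the table lists for UBE2L6 holds these letters, and the downstream one is printed.

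**Figure D4:**
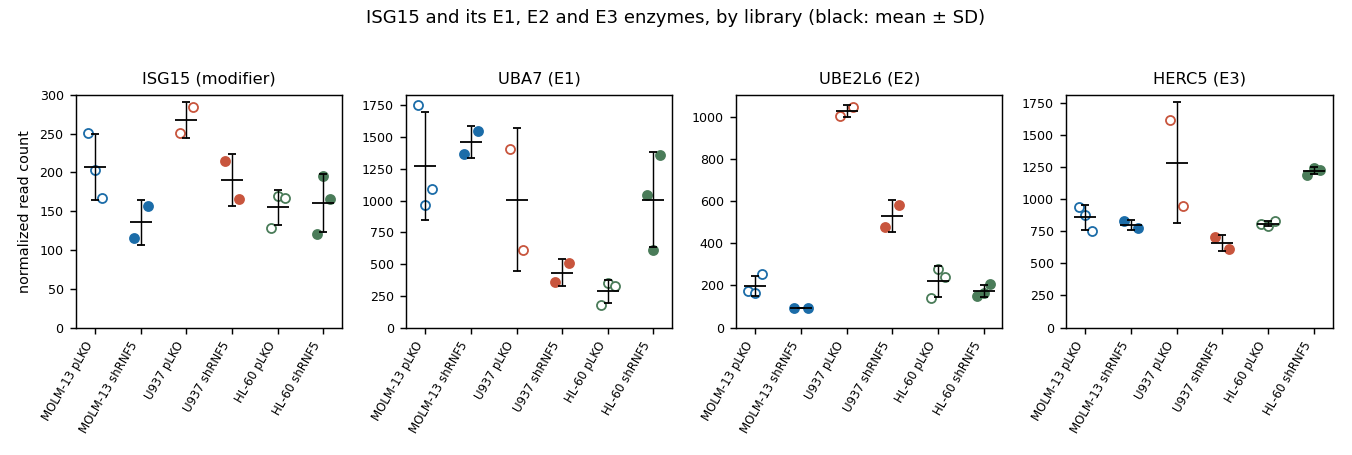
Normalized read count (y axis, from 0) of ISG15, its E1 UBA7, its E2 UBE2L6 and its E3 HERC5 in each library. Open points are pLKO and filled points shRNF5, and black bars give mean ± SD. UBA7 and HERC5 are lower after knockdown in U937 and higher in HL-60, and UBE2L6 is lower in U937.

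The NEDD8 enzymes UBE2M and UBE2F, which activate cullin ligases, were not called. UBE2M was 959 and 1136 against 1464 and 1518 in U937 (0.51, adjusted p = 0.203), and 1661, 2237 and 1604 against 1456, 1485 and 1753 in HL-60 (-0.22, adjusted p = 0.326). Of the 75-base windows of UBE2M, 9.3% are shared, mainly with UBE2MP1. UBE2F ranged from -0.16 to 0.44, and 26.5% of its 75-base windows are shared, mainly with the readthrough UBE2F-SCLY, which was listed at 0 in every library. Of the 16 genes of the NEDD8 list, 3 rose in U937 and 0 fell, where 6.92% of all genes were called up and 8.74% down. They were led by DCUN1D1, a co-ligase (1.06, adjusted p = 0.0434), and CUL2 (1.00, adjusted p = 0.0439). In HL-60 CUL4B rose (0.54, adjusted p = 0.0177).

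UBE2L3 (UBCH7; chromosome 22, 21903736 to 21978323, plus strand) serves HECT and RBR ligases. It was 1005 and 1221 in U937 pLKO and 1795 and 1805 in shRNF5. Both knockdown libraries were above both controls (0.70 ± 0.24 SE, limma adjusted p = 0.0993). With a pseudocount of 0.5 in place of 1 it was no longer called. HL-60 moved the other way, from 2137, 2395 and 2064 to 1619, 1887 and 1732, without overlap, at -0.33, under the size required for a call (adjusted p = 0.0727). In MOLM-13 it was 1820, 2174 and 2101 against 1975 and 1910 (-0.06, adjusted p = 0.858). The remaining HECT, RBR and other partners (UBE2H, UBE2W, UBE2Z, UBE2Q1 and UBE2Q2) ranged from -0.47 to 0.68 and none was called.

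UBE2O and BIRC6 are giant enzymes that join E2 and E3 activity in 1 chain, and both fell in HL-60. UBE2O (chromosome 17, 74385537 to 74449234, minus strand) clears unassembled proteins during red cell maturation. It was 1001, 1074 and 1011 in pLKO and 503, 634 and 517 in shRNF5. Every knockdown library lay below every control (-0.91 ± 0.13 SE, limma adjusted p = 0.00241). Its estimate was negative in MOLM-13 (1313, 1159 and 1145 against 960 and 924; -0.35, adjusted p = 0.281) and in U937 (1200 and 863 against 861 and 673; -0.42, adjusted p = 0.354), neither of which passed. BIRC6, an inhibitor of apoptosis (chromosome 2, 32582091 to 32844638, plus strand), was 7750, 3524 and 6177 against 3877, 3432 and 2110. These groups overlapped (-0.86 ± 0.28 SE, adjusted p = 0.0547). The call did not hold without pLKO replicate 1, pLKO replicate 3 or shRNF5 replicate 3, or without the mean-variance trend. In MOLM-13 it was 3150, 4626 and 3799 against 6764 and 4579 (0.55, adjusted p = 0.263).

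The responses of the E2 genes were compared between lines in 1 fit over all 15 libraries, which asks whether the knockdown effect itself differs. Between MOLM-13 and U937 it differed for 4 of 33 members (12.1%, against 15.4% of all 11072 genes): UBE2D2, UBE2D4, UBE2N and UBE2L3, each higher in U937. Between MOLM-13 and HL-60 it differed for 4 (12.1%, against 8.82%): UBE2E3, UBE2C and UBE2B were higher in HL-60 and BIRC6 in MOLM-13. Between U937 and HL-60 it differed for 10 (30.3%, against 37.2%). Of these 8 were higher in U937 (UBE2D4, UBE2G1, UBE2G2, UBE2N, UBE2M, UBE2L3, UBE2Q1 and BIRC6) and 2 in HL-60 (UBE2C and UBE2B). UBE2L3 had the smallest p of that comparison among members (difference 1.03 ± 0.20 SE, limma adjusted p = 0.00251), followed by UBE2D4 (1.06 ± 0.26, adjusted p = 0.00818). The shares were not far from those of all genes in any pair.

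**Figure D5:**
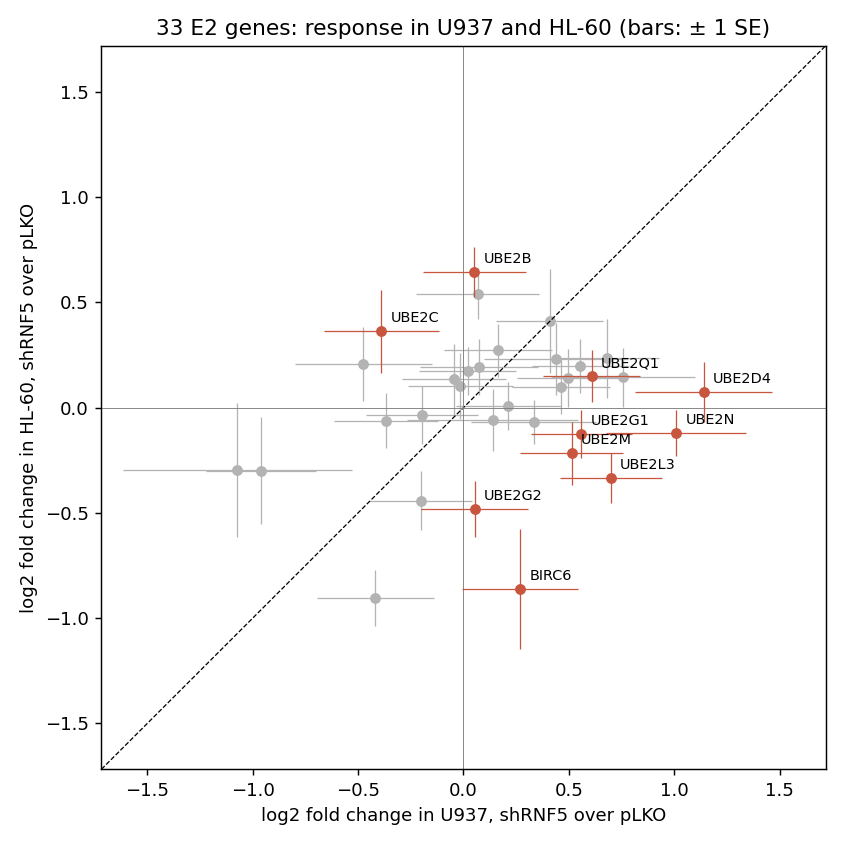
Log2 fold change (shRNF5 over pLKO) of the 33 E2 genes in U937 (x axis) and HL-60 (y axis), with bars of ± 1 SE and the line of equal response dashed. The 10 genes whose responses differed are named, 8 of them below the line.

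Counts over the partner lists are read against the shares of all genes called, which were 1.03% up and 1.01% down in MOLM-13, 6.92% and 8.74% in U937, and 13.6% and 12.3% in HL-60. Of the ubiquitin genes and E1 enzymes, RPS27A, which encodes ubiquitin fused to a ribosomal protein, fell in U937 (-0.83, limma adjusted p = 0.0753) and rose in HL-60 (0.59, adjusted p = 0.0535). The second ubiquitin E1, UBA6, fell in HL-60 (-0.62, adjusted p = 0.0263). AKTIP, an E2-fold protein without the catalytic cysteine, rose in HL-60 (0.50, adjusted p = 0.0851).

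Among 13 tested ER-associated ligases and partners RNF5 fell in each line, and 4 others rose in HL-60, led by RNF170 (0.93, limma adjusted p = 0.00975). Over all genes 13.6% were called up in HL-60 and 12.3% down, which holds for the counts that follow too. Of the 16 subunits and activators of the anaphase-promoting complex, HL-60 had 2 up and 1 down, with ANAPC11 at 0.83 (adjusted p = 0.0103) and ANAPC1 at -0.56 (adjusted p = 0.0609). Of 13 partners of the RAD6, UBC13 and UBE2T enzymes, 2 rose and 2 fell in HL-60, with FANCL at 0.61 (adjusted p = 0.0144) and CHFR at 0.59 (adjusted p = 0.0113). The genes that fell, named here after their values were seen, were RAD18, the ligase partner of UBE2A and UBE2B (-0.52, adjusted p = 0.0227), and TRAF6, a partner of UBE2N (-0.43, adjusted p = 0.0830). In the SCF list FBXO5 rose in U937 (1.02, adjusted p = 0.0465) and BTRC fell in HL-60 (-0.59, adjusted p = 0.0259).

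The HECT and RBR ligases included UBE3C, which rose in every line. It was 2297, 2925 and 2167 against 5385 and 4939 in MOLM-13 (1.08, limma adjusted p = 0.0508), and 1068 and 1029 against 3852 and 2588 in U937 (1.59, adjusted p = 0.0179). In HL-60 it was 1774, 1410 and 1576 against 2754, 1801 and 2250 (0.50, adjusted p = 0.0519). No knockdown library lay inside the range of its controls. In HL-60, where 13.6% of all genes were called up and 12.3% down, 7 of these 24 ligases rose, led by RNF19A (0.66, adjusted p = 0.0127), and HUWE1 fell (-0.58, adjusted p = 0.0916). HACE1 fell in U937 (-1.09, adjusted p = 0.0526).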

How the data were processed

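Polyadenylated RNA of 15 libraries was sequenced. According to the study's methods, the authors trimmed reads with CUTADAPT, aligned them to hg19 with STAR, counted genes with featureCounts and applied the normalization of edgeR (SARTools). The deposited column holds the authors' normalized read counts, rounded to whole numbers and here treated as a score, scaled within each line, so levels were not tested across lines. The methods name a NEBNext directional kit and the labels a QuantSeq kit, and which of them made the libraries was not tested. Shared windows were counted along the whole longest transcript, whichever kit was used. Each line was fitted with limma 3.58.1 (R 4.3.3) on log2(value + 1) with a mean-variance trend and Benjamini-Hochberg adjustment over all genes above 0 in that line. Depth was estimated from the steps between low values. Differences of response used 1 fit over 15 libraries. Ratios were tested with scipy 1.17.1. Windows shared between genes were counted over GENCODE transcripts on GRCh37 with a length of 75 bases, and promoter motifs over RefSeq windows. The text names RNF5, each member called or differing between lines, and up to 2 called genes of each partner list and line. The members and lists were chosen with earlier results of these data known. The fits were tested on simulated data. Alternatives covered the pseudocount, filters, scaling, the threshold, library weights, transcript length, the replicate block and each library left out. Some genes of the partner and marker lists are not reported here.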

Additional observations from a re-analysis of the deposited data

Results flagged for a closer look

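The responses below differed between 2 lines by the test of the difference itself (limma adjusted p under 0.1), and each value is the log2 fold change in the line named first minus that in the line named next. For MOLM-13 and U937 the differences were -0.66 for UBE2D2, -0.74 for UBE2D4, -1.06 for UBE2N and -0.76 for UBE2L3. For MOLM-13 and HL-60 they were -0.80 for UBE2E3, -0.95 for UBE2C, -0.63 for UBE2B and 1.41 for BIRC6. For U937 and HL-60 they were 1.06 for UBE2D4, 0.69 for UBE2G1, 0.54 for UBE2G2, -0.75 for UBE2C, -0.59 for UBE2B, 1.13 for UBE2N, 0.73 for UBE2M, 1.03 for UBE2L3, 0.46 for UBE2Q1 and 1.13 for BIRC6. These are 18 differences in 12 genes.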

How the results depend on the processing

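All 4 U937 calls were lost without pLKO replicate 2, shRNF5 replicate 1 or shRNF5 replicate 3, when 0, 0 and 6 of all genes were called. UBE2L3 in U937 was lost with a pseudocount of 0.5, which left 3 calls there. UBE2B, UBE2E3 and UBE2O in HL-60 were kept in all 6 such fits. Leaving out 1 library gave 0 to 2 called members in MOLM-13, 0 to 7 in U937 and 3 to 8 in HL-60. The differing members then numbered 0 to 9 (MOLM-13 and U937), 0 to 4 (MOLM-13 and HL-60) and 5 to 11 (U937 and HL-60). With the stricter threshold of 0.05 on the adjusted p, U937 had 0 calls, where 824 of all genes were called. The differences numbered 1 (MOLM-13 and U937), 0 (MOLM-13 and HL-60) and 6 (U937 and HL-60). Over all genes these differences numbered 808, 360 and 3077. Without the mean-variance trend U937 had 0 calls, MOLM-13 and HL-60 2 differences and U937 and HL-60 6. Over all genes these counts were 475, 720 and 3971. Library weights gave 3 calls in MOLM-13, 7 differences (MOLM-13 and HL-60) and 4 (U937 and HL-60). Over all genes the weights gave 3123 and 2989 differences in these 2 pairs, against 976 and 4122 in the main fit. Correction for transcript length gave 1 call in MOLM-13, 7 in U937 and 1 difference between MOLM-13 and HL-60. Over all genes these counts were 299, 2175 and 819. A single fit over 15 libraries gave 1 call in MOLM-13 and 12 in U937. Over all genes it called 272 in MOLM-13 and 3994 in U937, against 266 and 2062 in the fits by line. The rise in U937 was therefore not particular to the E2 genes. The cause was not tested. Whether the replicate numbers pair the samples could not be decided. Deviations of same-numbered libraries correlated at -0.173 and -0.530 in MOLM-13, 0.256 in U937 and 0.505, 0.156 and -0.109 in HL-60. Pairs with unlike numbers in HL-60 ran from -0.596 to 0.396. In a group of 2 libraries the deviations mirror each other, so the MOLM-13 and U937 values cannot show or exclude pairing. With the replicate block MOLM-13 had 0 calls and HL-60 6, where 3580 of all genes were called in HL-60. Under the block the differences numbered 0 (MOLM-13 and U937), 3 (MOLM-13 and HL-60) and 1 (U937 and HL-60). Over all genes these differences numbered 27, 1922 and 1482. For U937 alone no block could be fitted, because only 1 number was shared. Numbering the MOLM-13 shRNF5 libraries as in the names of the deposited tables, chosen after seeing the data, gave 5 calls under the block. Over all genes this numbering gave 2495 calls in MOLM-13, against 738 under the block with the labelled numbers. Counts over all genes moved too: 266 in MOLM-13 became 39 at an adjusted p under 0.05, 55 without the trend and 2224 with library weights. No called change reversed its sign in any alternative run.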
